A study of Mus musculus with 2 samples.

Results

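Mural cells are the contractile and supporting cells that wrap the endothelial tube of blood vessels, and they comprise pericytes along capillaries and smooth muscle cells along arterioles and venules. They were chosen by gene expression from single cell RNA-seq of YFP+ cells sorted from the adult mouse hippocampus, as cells with more than 600 and fewer than 7500 detected genes, under 20% of transcripts from mitochondrially encoded (mt-) genes, at least 4 of the 8 markers Vtn, Rgs5, Higd1b, Kcnj8, Ndufa4l2, Myl9, Pdgfrb and Rgs4, and under 3 summed molecules of the endothelial genes Cldn5, Ly6c1, Pecam1 and Flt1. This rule found 253 mural cells among 4186 WT cells that passed the gene and mt- limits and 298 among 6121 Opa1cKO cells, 551 of 10307 in all.

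Opa1 encodes a dynamin-like GTPase of the inner mitochondrial membrane that mediates fusion and keeps the cristae in shape. Loss of mitochondrial function is known to activate the integrated stress response (ISR), in which phosphorylation of eIF2α favors translation of the transcription factor ATF4, which in turn induces genes of amino acid import, amino acid synthesis and tRNA charging. Pericytes supply endothelial cells with basement membrane and growth signals, and carry potassium channels and receptors through which they adjust capillary tone.

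The WT group carried Nestin-CreERT2 and the ROSA26YFP reporter without a floxed Opa1, and the Opa1cKO group carried Opa1-Flox in addition. One label gives both groups the Opa1-Flox strain name, and the difference is taken from the label that calls the WT animal Flox negative. Both received tamoxifen at 8 weeks of age and were sampled at 12 weeks, 4 weeks later, so that tamoxifen, CreERT2 and YFP were shared by both groups. CreERT2 was driven by a Nestin promoter, and mural cells entered the data only where they passed the YFP+ gate. Cells of several mice were pooled, and 1 droplet library was made per genotype by 3′ end counting (10x Genomics), in which each captured mRNA molecule is counted once as a unique molecular identifier (UMI), whatever the length of the gene. The WT library held 10799936 UMIs in 4634 barcodes and the Opa1cKO library 18662032 UMIs in 6475 barcodes, of which 374858 and 565846 UMIs were in mural cells. A mural cell had a median of 1287 UMIs in WT and 1537 in Opa1cKO. With 1 library per genotype there was no replicate, and genotype and library cannot be told apart. All intervals given are 95% intervals that cover counting error only.

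Marker levels in the chosen cells were read first. Vtn, which encodes the matrix protein vitronectin, had 7298 UMIs in 250 of the 253 WT mural cells and 10445 UMIs in the Opa1cKO mural cells. Since the 8 markers and the 4 endothelial genes selected the cells, their levels are a description. The fibroblast genes Lum and Pdgfra had no UMI in mural cells of either library, and Col1a1 had 0 and 1, but the 8 fibroblast genes together had 143 UMIs in WT, led by Slc6a13 with 60, and 93 in Opa1cKO, led by Col1a2 with 33. The median number of markers detected was 8 in WT and 7 in Opa1cKO. The rule counted detected markers, and the values at its edge were as follows. Only 2 WT and 7 Opa1cKO members had exactly 4 markers, with a median of 5 and 4 Vtn UMIs. Just outside, 14 WT and 36 Opa1cKO cells had 3 markers and a median of 1 Vtn UMI, and 20 of those 36 were under 1% mt-. Among members, 12 WT and 5 Opa1cKO cells had 2 endothelial UMIs. In Opa1cKO, 65 of 266 members with 0 endothelial UMIs were under 1% mt-, against 1 of 27 with 1 and 2 of 5 with 2. A further 133 WT and 212 Opa1cKO cells had 4 or more markers but 3 or more endothelial UMIs, at median depths of 3311 and 3415 UMIs, and of the 212 only 2 (0.94%) were under 1% mt-. Of the 36 barcode sequences found in both libraries, 3 belonged to WT and 1 to Opa1cKO mural cells, and none was mural in both.

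The mt- transcripts, which encode subunits of the respiratory chain and ATP synthase, were lower in part of the Opa1cKO cells. The mt- share of a mural cell had a median of 3.50% in WT (quartiles 2.72 and 4.51%) and of 2.60% in Opa1cKO (quartiles 1.25 and 3.65%). No WT mural cell was under 1%, the lowest being 1.01%, and 0 of 253 cells allows a share of up to 1.19% taken as 3 cells of 253, or 1.45% by the exact binomial interval. In Opa1cKO, 68 of 298 cells were under 1% (22.8%, exact binomial interval 18.2 to 28%), 39 were between 1 and 2% and 191 were at 2% or more. With no limit on endothelial UMIs the share under 1% was 13.7%. The groups overlapped above 1%, where 14 WT cells were between 1 and 2% and 239 at 2% or more. Summed over mural cells, the 13 mt- mRNAs gave a log2 ratio of Opa1cKO over WT of -0.59. mt-Co3 (subunit of complex IV) was at a log2 ratio of -0.98 (interval -1.05 to -0.91) between the libraries, and mt-Co2 at -0.07.

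**Figure D1:**
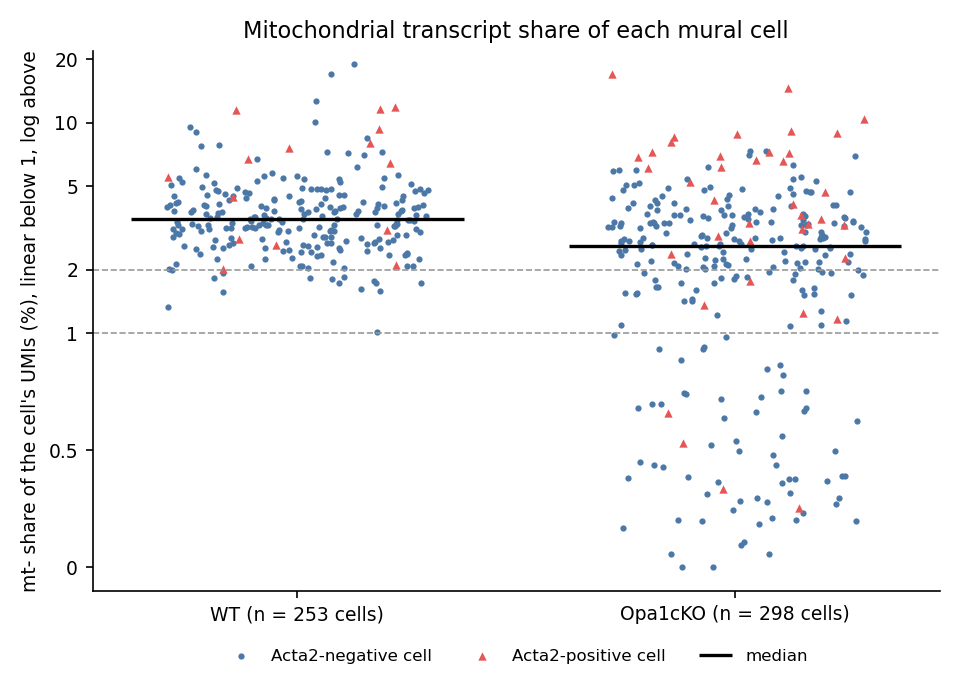
Each point is 1 mural cell, placed by library and by its mt- share of UMIs in percent on an axis that is linear below 1% and logarithmic above. Dashed lines mark 1 and 2%, black bars the medians of 3.50% and 2.60%, and triangles the 15 WT and 39 Opa1cKO cells with an Acta2 UMI; only Opa1cKO cells lie below 1%.

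Other cells of the same libraries were read with the same filters. In the astrocyte and NSC pool, which the Nestin driver targets, 4 of 3363 WT cells and 2429 of 4881 Opa1cKO cells (49.8%) were under 1%. In oligodendrocytes the counts were 0 of 150 and 4 of 202, and in endothelial cells 0 of 28 and 1 of 29. The mural share of 22.8% thus lay below that of the astrocyte and NSC pool, and its interval did not overlap that of oligodendrocytes (0.542 to 4.99%).

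All cells had been sorted by YFP fluorescence, so that their YFP shares are not independent of that gate, while the transcripts of YFP and of the targeted gene were not part of the marker rule. A YFP UMI was found in 87 of 253 WT mural cells (34.4%, interval 28.6 to 40.6%), in 94 of 191 Opa1cKO cells of at least 2% mt- (49.2%), in 20 of 39 between 1 and 2% (51.3%) and in 47 of 68 under 1% (69.1%, interval 56.7 to 79.8%). Oligodendrocytes, used as the background, showed YFP in 50% and 52.0% of cells, but at median depths of 3506 and 3602 UMIs. With every cell thinned to 800 UMIs, which left out no mural cell, YFP was seen in 20.6% of WT mural cells (interval 15.8 to 26.1%), 29.3% of Opa1cKO cells of at least 2% mt- (23 to 36.3%) and 44.1% of those under 1% (32.1 to 56.7%), against 12.7% and 13.9% of oligodendrocytes. Thinned to 1500 UMIs, which left out 179 WT and 137 Opa1cKO mural cells, the shares were 32.4%, 42.4% and 50%, against 23% and 26.1% of oligodendrocytes. By its interval, the WT share overlapped that of oligodendrocytes at both depths. The share in Opa1cKO cells of at least 2% was above it at 800 UMIs and overlapped it at 1500. The share in cells under 1% was above it at both. At 800 UMIs the astrocyte and NSC pool showed YFP in 18.97% of WT and 28.76% of Opa1cKO cells. The intervals of WT mural cells and of Opa1cKO mural cells of at least 2% held these values. That of mural cells under 1% lay above them. The pool values are over all its cells, of which 49.8% were under 1% mt- in Opa1cKO. YFP in the pool was not read by mt- class, so that like classes were not compared. Endothelial cells were at 3.571% and 3.448%, on 1 cell with YFP in each library. Opa1 itself (chr16:29579334-29654884, mm10, plus strand) was too sparse to check the deletion, with 5 UMIs in WT mural cells and 7 in Opa1cKO, of which 2 were in cells under 1%. In the astrocyte and NSC pool, with more UMIs, Opa1 was at 20 CPM in WT (157 UMIs, interval 17 to 23.4) and 7.92 CPM in Opa1cKO (115 UMIs, interval 6.54 to 9.51), over non-mt- UMIs. Nes, whose promoter drives the recombinase, had 28 UMIs in WT and 26 in Opa1cKO mural cells.

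Across all genes, the libraries differed in both directions. Of 3574 genes with at least 50 UMIs over both libraries, 3.67% were at least 2-fold higher and 4.34% at least 2-fold lower in Opa1cKO mural cells, around a median log2 ratio of 0.04. Levels are given as UMIs per 1000000 UMIs (CPM), and ratios between the libraries use all UMIs as the total. Among genes with at least 100 UMIs, the lowest ratio belonged to Serinc3 (chr2:163623272-163645131, minus strand), a multipass membrane protein. It had 1934 CPM in WT and 311 CPM in Opa1cKO, a log2 ratio of -2.64 (interval -2.88 to -2.40). Serinc3 was also lower outside mural cells. Over non-mt- UMIs it stood at 889 CPM in WT and 233 CPM in Opa1cKO endothelial cells, 196 and 61.7 CPM in the astrocyte and NSC pool, and 319 and 49.0 CPM in oligodendrocytes. Nptn, encoding the adhesion molecule neuroplastin, followed at -2.32, with 121 and 29.1 CPM in WT and Opa1cKO oligodendrocytes, 260 and 61.4 CPM in the pool, and 103 and 27.4 CPM in endothelial cells. The endothelial values rest on 5 and 2 UMIs and their intervals overlap. Dbp, a clock-controlled transcription factor, was at -1.93 in mural cells, from 248 to 98 UMIs. In endothelial cells it was at 310 and 82.2 CPM, on 15 and 6 UMIs with overlapping intervals. It was at 364 and 327 CPM in the astrocyte and NSC pool, and at 62.3 and 63.5 CPM in oligodendrocytes.

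Among genes with at least 100 UMIs, the highest ratio after Ptgds and Ccl19 was that of Slc7a11, a cystine carrier (log2 ratio 2.75, interval 1.86 to 3.80). It had 11 UMIs in 9 cells in WT and 112 UMIs in 43 cells in Opa1cKO. Without Acta2-positive cells and cells with 10 or more UMIs of 12 other-type markers (astrocyte, oligodendrocyte and microglia) it kept 4 of the 11 and 19 of the 112 UMIs, although 225 of 253 and 228 of 298 cells stayed, at a log2 ratio of 2.04 (interval 0.45 to 4.06). It was followed by Chchd10 (chr10:75933130-75937747, plus strand), which encodes a small protein of the mitochondrial intermembrane space, at 70 UMIs in WT and 677 UMIs in Opa1cKO (log2 ratio 2.68, interval 2.32 to 3.06). Chchd10 kept 20 and 323 UMIs in the same cells. Most of the Ptgds and Ccl19 UMIs came from single cells, with 91 of 101 Opa1cKO Ptgds UMIs and 137 of 226 Ccl19 UMIs in 1 cell each. Without the cells with other-type markers alone, Ptgds was at -0.52. Ndufa4, a subunit associated with complex IV, was at 46 and 208 UMIs (log2 ratio 1.58), and Sars, seryl-tRNA synthetase, at 21 and 115 UMIs (1.86). Ss18l2 and Cops6 and the astrocyte-expressed Gfap, Aqp4 and Cd9 were also among the 12 highest with at least 100 UMIs, at log2 ratios between 1.45 and 2.32.

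Within the Opa1cKO library, mural cells under 1% mt- were set against those of at least 2%, with non-mt- UMIs as the total since mt- genes made the split. The cells under 1% had a median of 1782 UMIs and those of at least 2% a median of 1422 UMIs. All 11 mt- mRNAs with 20 or more UMIs were at least 2-fold lower, which the split itself fixes. Of 1866 genes with at least 50 UMIs, 3.75% were at least 2-fold higher and 6.43% at least 2-fold lower, around a median of 0.03. Both counts rest on 1 library.

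The ISR genes were higher in the cells under 1%. Of the 6 ISR genes, 5 had at least 20 UMIs and 4 were at least 2-fold higher, with a median log2 ratio of 1.51, beside 5.77% of the 4143 genes of that depth higher, 8.04% lower and a median of 0.04. Slc3a2, the heavy chain shared by amino acid transporters, had 323 CPM in WT, 376 CPM in Opa1cKO cells of at least 2% mt-, 930 CPM between 1 and 2% and 1301 CPM under 1%. The cells of at least 2% thus stayed near WT (log2 ratio 0.22, interval -0.16 to 0.60), and those under 1% stood apart from both (1.79, interval 1.45 to 2.14). Ddit3, the transcription factor CHOP, was at 69.7, 66.3, 232 and 405 CPM in these groups, with overlapping intervals in WT and cells of at least 2%, and Atf4 was at 55.8, 78.9, 137 and 224 CPM. Ddit4, an inhibitor of mTORC1, was at 123 CPM under 1% and 133 CPM at 2% or more (log2 ratio -0.11). Chac1, a glutathione-degrading enzyme, had 7 UMIs in all Opa1cKO mural cells and none in WT. Slc7a11, which pairs with Slc3a2 at the membrane, had its highest level between 1 and 2% mt-, with 30.7, 117, 433 and 246 CPM in the same order. Its ratio under 1% over at least 2% was 1.07, and -0.26 once Acta2-positive cells and cells with other-type markers were left out, which rests on 5 and 12 UMIs.

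Further ATF4 targets followed. Of the 48 listed, 27 had at least 20 UMIs, 17 were at least 2-fold higher and 2 lower, and the median log2 ratio was 1.28. Of all genes of that depth, 5.77% were higher and 8.04% lower. Mthfd2 (chr6:83305691-83325908, minus strand), a mitochondrial enzyme of folate metabolism, had 2 UMIs in WT, 6 in Opa1cKO cells of at least 2%, 8 between 1 and 2% and 58 under 1%, found in 36 of the 68 cells. Trib3 (chr2:152337422-152344032, minus strand), a pseudokinase that restrains ATF4, had 0 UMIs in WT, 9 at 2% or more, 9 between 1 and 2% and 45 under 1%. Both genes were thus concentrated in the cells under 1%, Mthfd2 at a log2 ratio of 4.47 (interval 3.26 to 5.97) and Trib3 at 3.52 (interval 2.47 to 4.74). Eif4ebp1, a repressor of cap-dependent translation, was at 33.5 CPM in WT and at 47.4, 74.0 and 340 CPM in the Opa1cKO classes, from the highest to the lowest mt- share. The tRNA synthetase genes Nars and Sars were at 398 and 369 CPM under 1%, against 97.6 and 58.5 CPM in WT. In Opa1cKO cells of at least 2% they were at 145 and 133 CPM. There the Sars interval (95.6 to 179) lay above that in WT (36.2 to 89.5). Asns, asparagine synthetase, lies outside the naming rule and was picked after its values were seen, with 2 UMIs in WT and 7, 1 and 35 UMIs in the Opa1cKO classes from the highest to the lowest mt- share. Nupr1, a stress-induced chromatin protein, was already at 412 CPM in WT mural cells, where the WT astrocyte and NSC pool had 61.0 CPM, and reached 1221 CPM under 1%. Counted per cell, UMIs of the ISR genes and the other ATF4 targets together had a median of 2.54 per 1000 non-mt- UMIs in WT (quartiles 1.46 and 3.90), 3.12 in Opa1cKO cells of at least 2%, 4.27 between 1 and 2% and 9.15 under 1% (quartiles 6.74 and 12.3). The quartile ranges of WT and of cells under 1% did not overlap.

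**Figure D2:**
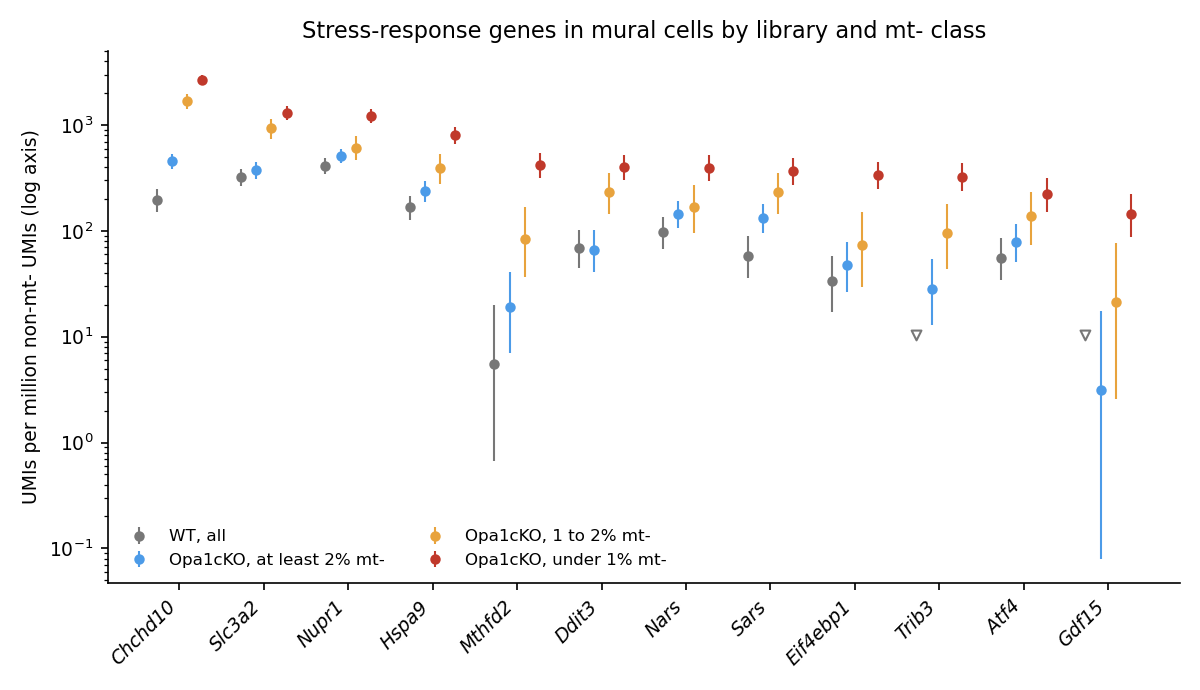
Levels of 12 genes in mural cells, in UMIs per 1000000 non-mt- UMIs on a logarithmic axis, for all WT cells and for the 3 mt- classes of Opa1cKO; bars are exact Poisson intervals and open triangles are the upper limits for a count of 0. Each of these 12 chosen genes was highest in Opa1cKO cells under 1% mt-. Slc7a11, Phgdh and Psph, which are not shown, were highest between 1 and 2%. In cells of at least 2%, the intervals of Chchd10, Sars and Trib3 lay above those in WT, and those of the other genes shown overlapped WT.

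Between the libraries the same lists gave smaller or like values. The 5 ISR genes had a median log2 ratio of 1.19 over WT with 4 at least 2-fold higher, and of the 33 other ATF4 targets that were read 18 were at least 2-fold higher and 1 lower, with a median of 1.13. With no endothelial limit these medians were 0.68 and 0.69. Among all 6548 genes of that depth 5.6% were higher and 7.57% lower, with a median of -0.01. In Opa1cKO cells of at least 2% mt- the medians over WT were 0.50 and 0.58. Without the Acta2-positive cells and the cells with other-type markers these became 0.12 over 4 genes and 0.56 over 11, and the medians of cells under 1% over cells of at least 2% were 1.71 over 4 genes and 1.33 over 18.

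The 3 genes below carry the letters TGATGNAAN, the composite element that ATF4 binds with C/EBP proteins, in the RefSeq promoter (GRCm38.p6, 250 bases before to 50 after the start, both strands searched). It was present in 4.5% of the promoters of 27025 genes, in 2 of the 6 ISR genes, in 15 of the 35 other ATF4 targets with a promoter in the table, and in 2 of 24 pericyte identity genes. The list of ATF4 targets was itself drawn up from known targets, and a match is no evidence of binding in these cells. The 12 genes of highest ratio in each comparison were taken among those with at least 100 UMIs. Of these, the element was in 2 of the 10 with a promoter in the table for Opa1cKO over WT. For cells under 1% over cells of at least 2%, it was in 2 of 8. The stretches are shown because Chchd10, Slc7a11 and Nupr1 are those among these genes that hold it, each written 5′ to 3′ on the strand of the gene and ending upstream of its start, with the motif in capitals.
Chchd10, chr10:75933009-75933102, plus strand: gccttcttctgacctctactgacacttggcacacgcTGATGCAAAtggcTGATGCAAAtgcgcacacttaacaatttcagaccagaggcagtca
Slc7a11, chr3:50443617-50443715, minus strand: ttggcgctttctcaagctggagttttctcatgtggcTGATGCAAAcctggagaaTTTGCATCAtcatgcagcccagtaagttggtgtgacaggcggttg
Nupr1, chr7:126625537-126625617, minus strand: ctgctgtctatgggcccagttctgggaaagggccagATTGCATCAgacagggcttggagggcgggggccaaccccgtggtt
Chchd10 held 2 matches, which begin 85 and 72 bases before the start, Slc7a11 held 2 on opposite strands, and Nupr1 held 1 on the opposite strand.

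Chchd10 had the highest ratio of all genes with at least 100 UMIs under 1% over at least 2% (log2 ratio 2.56, interval 2.28 to 2.85). Its levels were 195 CPM in WT, 458 CPM in cells of at least 2%, 1680 CPM between 1 and 2% and 2696 CPM under 1%, and it was found in 33 of 253, 46 of 191, 18 of 39 and 53 of 68 cells. The WT astrocyte and NSC pool already had 1349 CPM, and Opa1cKO cells of that pool under 1% mt- had 2900 CPM. Without Acta2-positive cells and cells with other-type markers the ratio in mural cells was 3.91. Other mitochondrial and protein folding genes among the 12 highest were Hspa9, the matrix chaperone mortalin, at 167 CPM in WT and 802 CPM under 1%, Ghitm, an inner membrane protein, at 1.47, and Krtcap2, a subunit of the oligosaccharyltransferase, at 1.82. Hspa5, the endoplasmic reticulum chaperone BiP, was at 446 CPM in WT, 502 CPM at 2% or more and 1330 CPM under 1%.

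As whole lists, these groups showed smaller ratios. In the mitochondrial unfolded protein response list, 2 of the 10 genes read, Hspa9 and Hspe1, were at least 2-fold higher under 1%, beside 5.77% of all genes of that depth, and the median was 0.14. In the endoplasmic reticulum list, 3 of 16 were at least 2-fold higher, Hspa5, Herpud1 and Xbp1, with a median of 0.30. Nuclear-encoded OXPHOS genes had a median of -0.10 over 83 genes, with 1 at least 2-fold higher and 1 lower, where the mt- partners define the split. Glycolysis genes had a median of -0.06 over 15 genes and none past 2-fold. Cytosolic ribosomal protein genes had a median of 0.63 over 84 genes, with 7 at least 2-fold higher, among them Rps28 at 1.21 and Rpl12 at 1.36, although reads of ribosomal genes can be shared with pseudogenes. Gdf15, a secreted stress signal, had 0 UMIs in WT, 1 in cells of at least 2% mt- and 20 under 1%, the last in 9 cells. Fgf21 had none. Cdkn1a, the cell cycle inhibitor p21, stood at 30.7 CPM in WT, 56.8 CPM at 2% or more and 325 CPM under 1%, a log2 ratio of 2.52 between the classes that was -0.04 when cells with 3 or more endothelial UMIs were let in.

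Some of the genes that identify pericytes were lower in Opa1cKO. Of 28 identity genes read, 5 were at least 2-fold lower in Opa1cKO over WT and none higher, beside 7.57% of all genes lower and 5.6% higher. Their median was -0.54, which became -0.34 without cells with other-type markers and -0.28 without those and Acta2-positive cells. Under 1% over at least 2%, 5 of 28 were at least 2-fold lower and none higher, beside 8.04% of all genes lower and 5.77% higher. The median of -0.38 turned to 0.12 with no endothelial limit. The 8 rule markers were not on this list. Atp13a5 (chr16:29231851-29378732, minus strand), a transporter known as a pericyte marker, was at 2163 CPM in WT, 758 CPM at 2% or more, 550 CPM between 1 and 2% and 853 CPM under 1%. It was thus lower in every Opa1cKO class, at -1.51 over WT in cells of at least 2% (interval -1.73 to -1.30) and 0.17 between the classes. Abcc9, the sulfonylurea receptor subunit of the pericyte potassium channel, showed the same with 479, 174, 306 and 217 CPM, and Kcnj8, the pore subunit of that channel and a rule marker, had 1985, 1421, 1067 and 1395 CPM. Pdgfrb, the receptor through which endothelial PDGF-B recruits pericytes, is a rule marker, so that its values are a description. It had 483 UMIs in WT and 386 in Opa1cKO, a log2 ratio of -0.92.

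A second set was close to WT in cells of at least 2% and lower under 1%. Ifitm1, an interferon-induced membrane protein, was at 934 CPM in WT, 953 CPM at 2% or more and 260 CPM under 1% (log2 ratio -1.87, interval -2.42 to -1.37). Slc6a20a, a proline transporter, was at 1475, 1373 and 535 CPM, and Higd1b, a rule marker, at 3473, 3198 and 1648 CPM. Gja4, encoding connexin 37, was lower in both steps, at 697, 508 and 152 CPM, as were the transcription factors Foxc1, with 215, 101 and 36.1 CPM, and Tbx18, with 209, 114 and 43.4 CPM. The transcription factors had only 5 and 6 UMIs under 1%, and the intervals of their ratios to cells of at least 2% reached -0.11 and -0.13. With Acta2-positive cells left out, 6 of the 26 identity genes read were at least 2-fold lower under 1%, beside 6.92% of the 3668 genes read lower and 6.11% higher.

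**Figure D3:**
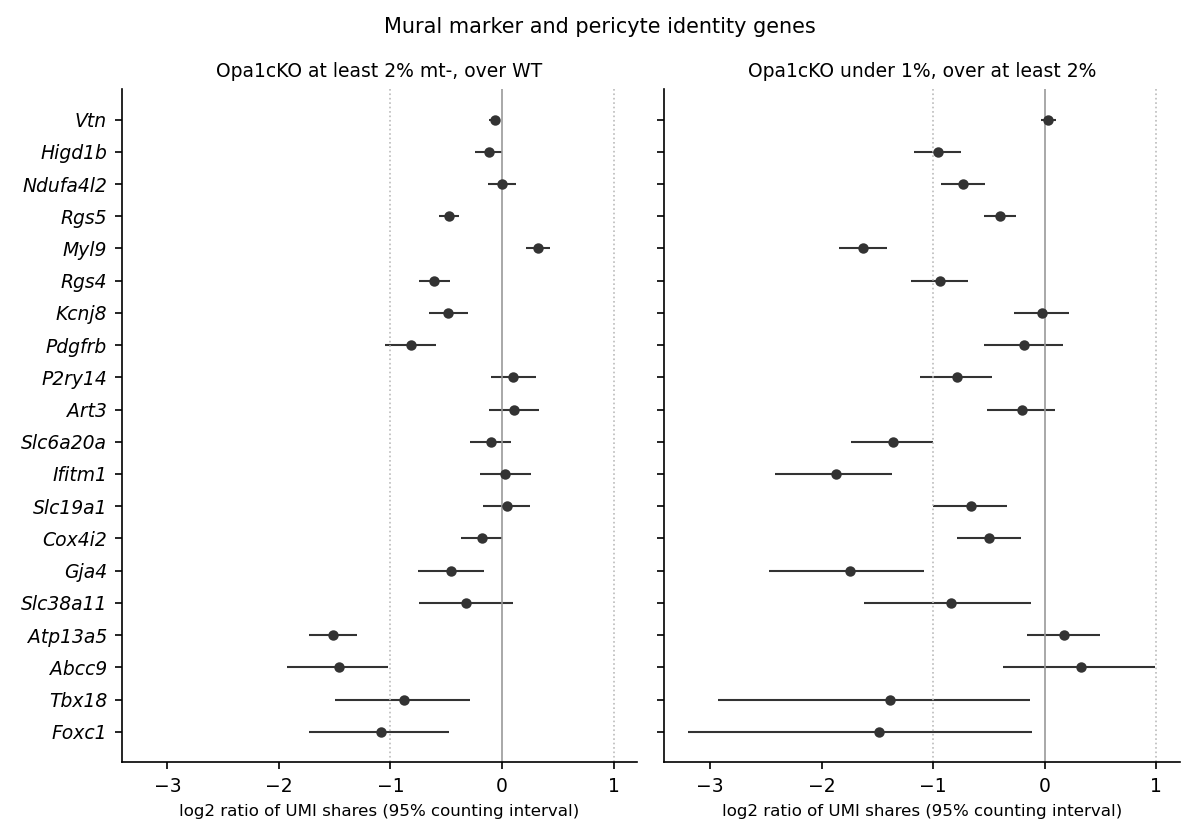
Log2 ratios of mural rule markers (upper 8 genes) and pericyte identity genes, with exact 95% counting intervals, for Opa1cKO cells of at least 2% mt- over WT (left, all UMIs as total) and for Opa1cKO cells under 1% over at least 2% (right, non-mt- UMIs as total). Among the identity genes, Atp13a5 and Abcc9 were below -1 on the left alone, and Ifitm1, Slc6a20a, Gja4 and Tbx18 on the right alone. Foxc1 was below -1 on both sides.

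Genes by which mural cells act on the vessel and its surroundings were read next. Ptn, the growth factor pleiotrophin, was the most abundant, at 13745 CPM in WT, 9266 CPM in Opa1cKO cells of at least 2%, 6405 CPM between 1 and 2% and 3758 CPM under 1%. It was lower in each class than in the one before, at -1.30 (interval -1.44 to -1.17) under 1% over at least 2%. The cytokine gene Il34 and the chemokine gene Cxcl12 were both at 101 CPM under 1%, against 446 and 329 CPM in WT. Tgfb1, a growth factor for vessel maturation, went the other way within Opa1cKO, at 104 CPM at 2% or more and 369 CPM under 1% (1.82, interval 1.16 to 2.50), with 173 CPM in WT. Of the 18 signalling genes read, 1 was at least 2-fold higher and 6 lower under 1%, with a median of -0.52, beside 5.77% of all genes higher and 8.04% lower. Of 22 basement membrane and matrix genes, 7 were at least 2-fold lower in Opa1cKO over WT and none higher (median -0.62), beside 7.57% of all genes lower, Col4a1 with 90 and 63 UMIs and Lama4 with 35 and 18 UMIs among them. Under 1% over at least 2%, none of 17 passed 2-fold (median -0.38). With Acta2-positive cells left out, Col4a1 was at 1.39 in that comparison (interval 0.40 to 2.42), on 22 and 16 UMIs. The receptors and G proteins of vasoactive signalling had 1 of 19 at least 2-fold lower between the libraries, with a median of -0.39.

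Cells with an Acta2 UMI, the actin of smooth muscle, were considered apart. There were 15 among 253 WT mural cells (5.93%, interval 3.36 to 9.59%) and 39 among 298 Opa1cKO mural cells (13.1%, interval 9.47 to 17.5%). Within each library these cells stood out by contractile genes other than Acta2, of which 12 of 15 read in WT and 15 of 19 in Opa1cKO were at least 2-fold higher than in Acta2-negative cells. Tagln, encoding transgelin, had 119 of its 124 WT UMIs and 315 of its 324 Opa1cKO UMIs in them, and Myh11, smooth muscle myosin, had 39 of 46 and 88 of 91. Of 28 pericyte identity genes, 13 were at least 2-fold lower and 3 higher there in each library, beside 612 lower and 366 higher of 3689 genes in WT and 752 and 297 of 4753 in Opa1cKO. Mcam, at 1.78 in WT and 1.20 in Opa1cKO, was among those higher, and Gja4 was at 0.87 and 1.00. Among those lower was Atp13a5 at -2.72 and -2.39, and of the rule markers Kcnj8 was at -2.45 and -2.85, Vtn at -2.15 and -2.37, and Rgs5 at -0.08 and -0.48.

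Acta2-positive cells were unevenly spread over the mt- classes, with 31 of the 39 in Opa1cKO at 2% or more and 4 under 1%, and they had a median mt- share of 6.45% in WT and 4.31% in Opa1cKO. Contractile genes followed the same split. Under 1% over at least 2%, 15 of 19 were at least 2-fold lower with a median of -2.38, beside 8.04% of all genes, and with Acta2-positive cells left out 3 of 11 were lower with a median of -0.44, beside 6.92%. Between the libraries the median of 0.41 became -0.25. The ratios of immediate early genes shrank too, with Fos still at least 2-fold lower. Fos and Junb were at -2.93 and -1.90 under 1% with all cells and at -1.68 and -0.84 without Acta2-positive cells. The list went from 10 of 17 to 3 of 14 at least 2-fold lower, beside the same 8.04% and 6.92%. Crip1, a LIM domain protein, went from -2.98 to -1.14. Myl9, the regulatory myosin light chain and one of the markers that chose the cells, was at -1.24 without Acta2-positive cells. Among Acta2-negative cells, 64 of 259 in Opa1cKO (24.7%) and 0 of 238 in WT were under 1% mt-.

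Transcripts of other cell types were present in all mural classes. The 12 astrocyte and NSC markers summed to 14107 CPM in WT, 16808 CPM in Opa1cKO cells of at least 2%, 23600 CPM between 1 and 2% and 13414 CPM under 1%, all 12 with a UMI and Cst3, a secreted protease inhibitor of many brain cells, the most abundant. Aldoc, a glycolytic enzyme of astrocytes, had 1079 CPM in WT, 1496 CPM at 2% or more, 2896 CPM between 1 and 2% and 1489 CPM under 1%, against 8552 CPM in astrocyte and NSC pool cells under 1%. Its ratio of Opa1cKO over WT was 0.71, and -0.07 (interval -0.50 to 0.37) without Acta2-positive cells and cells with other-type markers. Slc1a3, the astrocyte glutamate transporter, was at 613 CPM in WT, 650.3 CPM at 2% or more (interval 565 to 746), 1617 CPM between 1 and 2% and 1070 CPM under 1% (interval 904 to 1257). Between the compared classes the sum was thus lower, Aldoc alike and Slc1a3 higher under 1%. The middle class had the highest values, and 10 of 39 of its cells had 10 or more UMIs of the 12 other-type markers, against 8 of 68 under 1% and 19 of 191 at 2% or more. Over whole libraries such cells were 14 of 253 in WT (5.53%) and 37 of 298 in Opa1cKO (12.4%). In mural cells under 1% mt-, Mthfd2, Asns and Trib3 were at 419, 253 and 325 CPM. In pool cells under 1% they were at 100, 97.7 and 103 CPM. Nars, Sars and Hspa9 were also higher in mural than in pool cells under 1%. Others were lower, with Slc3a2 at 1301 and 2445 CPM, Slc7a11 at 246 and 1107 CPM, and Phgdh at 267 and 1389 CPM. Psat1, Psph and Chac1 were lower too, and Atf4, Ddit3 and Nupr1 had overlapping intervals. Phgdh and Psph, enzymes of serine synthesis, and Slc7a11 peaked in the middle class, with 634, 317 and 433 CPM.

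The 8 oligodendrocyte markers summed to 148 CPM in WT, 890 CPM at 2% or more, where 1 cell held 244 of the 282 UMIs, 180 CPM between 1 and 2% and 116 CPM under 1%, where Cldn11 and Ermn were at 0. The 14 endothelial genes summed to 1082, 862, 634 and 773 CPM, mostly Esam, and Cldn5 was at 0 in both classes under 2%. The 6 ependymal genes summed to 951, 1114, 1987 and 759 CPM, led by Rarres2. The 8 microglia genes summed to 223, 110.5, 74.0 and 116 CPM, with Csf1r, Cx3cr1 and Tmem119 at 0 in all Opa1cKO classes. The 8 fibroblast genes, led by Slc6a13 or Col1a2, summed to 399, 227, 63.4 and 108 CPM, and the 8 neuronal genes to 19.5, 28.4, 10.6 and 21.7 CPM, with Dcx at 0 throughout. The 4 hemoglobin genes had 2 UMIs in WT and 6 in Opa1cKO. The part of these transcripts in the ratios between the libraries was not tested.

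**Figure D4:**
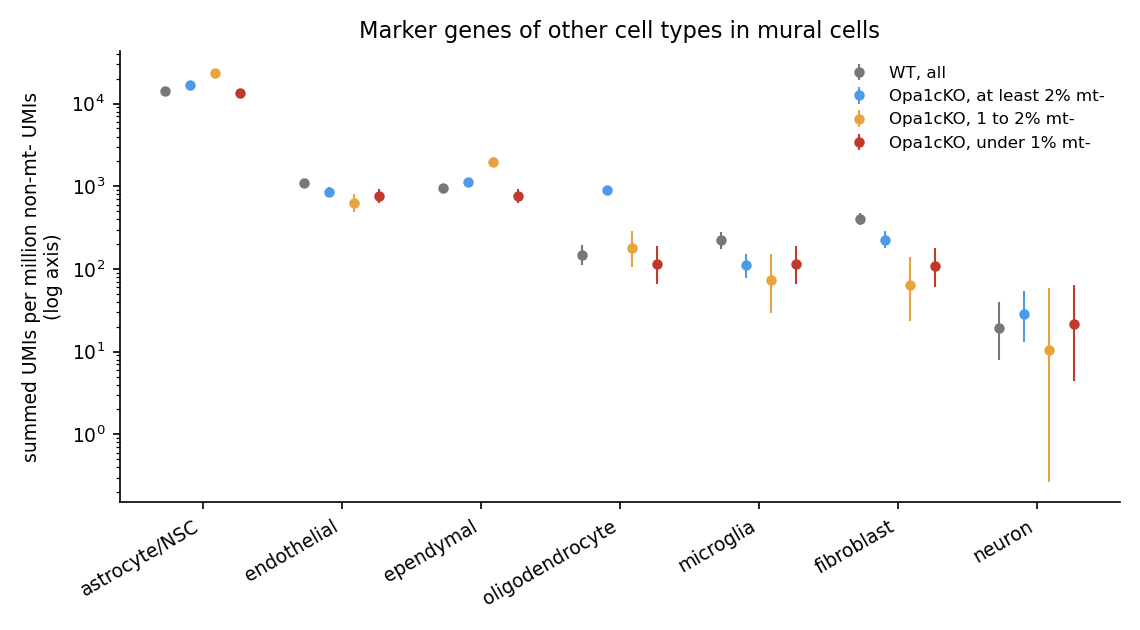
Summed markers of 7 other cell types in mural cells, in UMIs per 1000000 non-mt- UMIs on a logarithmic axis, with exact Poisson intervals, for WT and the 3 mt- classes of Opa1cKO. Astrocyte/NSC and ependymal markers were highest between 1 and 2% mt-, and oligodendrocyte markers in cells of at least 2%, where 1 cell held 244 of the 282 UMIs.

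The other cell classes gave the following values beside mural cells. Between the libraries the ISR genes had a median log2 ratio of 1.5 in the astrocyte and NSC pool, 0.69 in oligodendrocytes and 0.87 in endothelial cells, the last over 3 genes, and 1.19 in mural cells. The other ATF4 targets had 1.46, 0.06 and 0.11, the last again over 3 genes, and 1.13 in mural cells. The summed mt- mRNAs were at -1.26, -0.13 and -0.83, beside -0.59 in mural cells. Mural cells lay between the pool and oligodendrocytes in all 3 measures, and no test of these differences could be made with 1 library per genotype.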

How the data were processed

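Single cell RNA-seq counts of 1 library per genotype were used as deposited. The authors made these counts of UMIs per gene and barcode with Cell Ranger against mm10 (version 2.1.1 in the submitters' processing notes, 3.1.0 in the matrix headers), with no normalization, and all columns were used (0 left out). Cells were filtered on detected genes and mt- share as in the study. Its further requirement for YFP was not applied except as an alternative. No doublet caller was run. Doublets were limited by the endothelial maximum, and by an alternative that leaves out cells with 10 or more UMIs of 12 markers of other cell types.

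UMIs were summed over the mural cells of each library or mt- class and divided by all UMIs, or by non-mt- UMIs wherever mt- classes were compared. Intervals are exact 95% intervals (Poisson for levels, Clopper-Pearson for shares, a binomial split for ratios). PCR duplicates were collapsed by UMI, but the intervals hold no variation between animals. Ratios were read for genes with at least 20 UMIs over both groups within lists and at least 50 across all genes, and a difference of 2-fold was used as a description, without a test, since each group was 1 library. A count of 0 was set to 3 UMIs as its upper limit. Shares of cells with a YFP UMI were also computed after thinning.

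Genes were named by rule: the rule markers, Opa1, Nes, YFP, the mt- mRNAs and the ISR genes, up to 6 members of highest count and 4 of largest ratio in each other list, and the 12 highest and 12 lowest genes with at least 100 UMIs in each comparison. Some genes that this rule names are not reported here. The members and the lists were chosen with earlier results of these data known. Gene coordinates are from the mm10 GENCODE annotation, and promoters from RefSeq (GRCm38.p6). The calculation of ratios was tested on simulated data. Python 3.11.15, numpy 2.4.6, scipy 1.17.1, pandas 2.3.3 and matplotlib 3.10.9 were used. The alternatives changed the marker, endothelial and mt- limits, the YFP, Acta2 and other-type requirements, depth, weighting and gene minimum. The thinning to 800 UMIs and the joint removal of Acta2-positive cells and cells with other-type markers were chosen after seeing the data.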

Additional observations from a re-analysis of the deposited data

How the results depend on the processing

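Of 273 summary values under 19 alternatives, 231 were counted as staying and 42 as moved. None that was past 2-fold with an interval clear of 0 changed sign. Of 6680 gene values, 16 did so by that rule. A ratio or share stayed if within its counting interval, and a list median if within that of its middle gene or genes. Counts of genes have no such interval, and 218 genes for 155 was counted as staying. So was the pericyte identity median that went from -0.38 to 0.12. The cause of these shifts was not tested. No paired analysis was possible because there was 1 library per genotype, which also prevents leaving out a replicate. The summed mt- mRNAs, at a log2 ratio of -0.59 for Opa1cKO over WT, gave -0.71 with at least 3 markers, -0.50 with 0 endothelial UMIs, -0.49 with no endothelial limit, -0.76 in cells with a YFP UMI, -0.49 without cells with other-type markers, -0.45 without the deepest 5% of cells, -0.78 without Acta2-positive cells, -0.71 without both of these kinds, -0.49 with each cell weighted equally, and -0.84 and -0.51 thinned to 1500 and 800 UMIs. The share of Opa1cKO mural cells under 1% mt-, 22.8%, became 13.7% with no endothelial limit, 29.2% in cells with a YFP UMI and 31.1% thinned to 1500 UMIs. The contractile median for Opa1cKO over WT, 0.41, became -0.25 without Acta2-positive cells and -0.28 without those and cells with other-type markers. Under 1% over at least 2%, it went from -2.38 to -0.44 and -0.49 in the same order, and to -1.33 with no endothelial limit. Acta2-positive cells made up 9.40% of Opa1cKO and 3.56% of WT mural cells when 10 or more UMIs were required, from 13.1% and 5.93%. The pericyte identity median under 1% over at least 2%, -0.38, was 0.12 with no endothelial limit. With no endothelial limit the ISR and other ATF4 medians over WT were 0.68 and 0.69. The Opa1 ratio, on 12 UMIs in all, changed sign under several settings, from -0.11 to 1.12 in cells with a YFP UMI for Opa1cKO over WT, and from 0.20 to -1.27 for cells under 1% over at least 2%.

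Genes at least 2-fold higher in Opa1cKO over WT numbered 131, and 215 with at least 3 markers, 77 without cells with other-type markers, 57 without those and Acta2-positive cells, 53 with the stricter gene minimum, and 79 and 43 thinned to 1500 and 800 UMIs. Those lower numbered 155, and 252 with no endothelial limit, 55 with a YFP UMI, 99 without Acta2-positive cells and cells with other-type markers, 58 with the stricter minimum, and 27 and 60 when thinned. Under 1% over at least 2%, 70 genes were higher, and 217 with no endothelial limit, 29 with the stricter minimum, and 43 and 40 when thinned. There 120 were lower, and 547 with no endothelial limit, 71 with a YFP UMI, 77 without Acta2-positive cells, 57 with the stricter minimum, and 54 and 61 when thinned.

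For Opa1cKO over WT, the log2 ratio changed sign with no endothelial limit for Itm2a (0.0290) and Slc7a5 (-0.49), without cells with other-type markers for Mbp (-0.62) and Ptgds (-0.52), without Acta2-positive cells for Map3k7cl (-0.13) and Sncg (-0.45), without both kinds for Mbp (-0.53), Ptgds (-0.43) and Sncg (-0.79), and thinned to 1500 UMIs for Ier3 (0.34). Under 1% over at least 2%, it did so without both kinds for Map3k7cl (0.00459), Ptgds (0.00459), Slc7a11 (-0.26) and Sncg (1.00), where Map3k7cl, Ptgds and Sncg had only 1 to 4 UMIs in each class. With no endothelial limit, the ratio of Gclm, Opa1cKO over WT was -0.00615, and that of Cdkn1a, under 1% over at least 2% within Opa1cKO was -0.0429.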

Other observations

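Gene groups that belong to no comparison above gave the following values in mural cells, all as log2 ratios of 1 library or class to another. Mitochondrial ribosomal protein genes had a median of 0.35 over 74 genes for Opa1cKO over WT, with 7 at least 2-fold higher and none lower, beside 5.6% and 7.57% of all genes, and of 0.24 over 69 genes for cells under 1% mt- over cells of at least 2%, with 6 higher and 3 lower, beside 5.77% and 8.04%. Genes of mitochondrial fusion, fission and cristae had medians of 0.34 over 11 genes and 0.29 over 9 genes. NRF2 targets, which include enzymes of glutathione synthesis, had medians of 0.51 over 9 genes and -0.09 over 7 genes. Genes of antigen presentation and interferon response had medians of 0.22 over 11 genes and -0.05 over 8 genes, with none past 2-fold, and their member B2m, the light chain of MHC class I, stood at 440.4 CPM in WT, 625 CPM at 2% or more and 687 CPM under 1%. Hypoxia genes had medians of -0.09 over 9 genes and 0.06 over 8 genes.

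Phlda3, a p53 target, had 3 UMIs in WT and 21, 4 and 3 UMIs in the Opa1cKO classes from the highest to the lowest mt- share, so that it did not follow the order of Cdkn1a. Ppp1r15a, an ATF4 target that restores translation, was at 123 CPM both in WT and under 1% and at 360 CPM in cells of at least 2%, opposite to Trib3 and Mthfd2. Slc7a5, the light chain of an amino acid transporter that is also abundant in brain endothelium, had 4 UMIs in WT and 16, 19 and 19 UMIs in the same order.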
